A study of Saccharomyces cerevisiae with 12 samples.

Results

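The nascent transcription of budding yeast after 180 min in Congo Red was compared with that after 120 min. The comparison took the genomic run-on groups of these times, GRO t180 and GRO t120, which are 2 of the 12 groups of the series and hold 6 of its 36 arrays, 3 at each time. Both groups were wild-type cultures of Saccharomyces cerevisiae BY4741, a haploid laboratory strain that lacks HIS3, LEU2, MET15 and URA3, grown in rich glucose medium at 24 °C. Both had received the dye at 30 µg/ml, a sublethal amount, and the labels give no difference in treatment between them but the time after the dye was added. The series' design text also gives them different factors for cell volume, 1.44 at 180 min and 1.17 at 120 min. The other groups were nascent transcription of the same strain at 0, 30, 60 and 240 min, and mRNA abundance at all 6 times. No culture without the dye was sampled after 0 min, so time in the dye and time in culture cannot be told apart. The labels do not say whether the 3 arrays of a group came from separate cultures, so p-values measure the spread between arrays, which may be technical.

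Congo Red binds chitin and glucan chains and hinders their assembly into the yeast cell wall. Cells answer mainly through the cell wall integrity pathway, in which sensors at the membrane activate Rho1, protein kinase C and the MAP kinase Slt2, and Slt2 in turn switches on the transcription factors Rlm1 and SBF. In a genomic run-on, cells are permeabilised with a detergent and the polymerases already engaged on genes extend their transcripts for a few minutes with a radioactive nucleotide. The label bound to each spot of an array thus follows the polymerases at work on that gene, while the amount of an mRNA also depends on how fast it is degraded. Larger cells need more transcripts to keep a given concentration. The authors normalised the nascent rate to cell volume and called the result the synthesis rate.

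No file names the gene behind a spot. Of the 6144 spots on an array 0 had an identifier found among the 6477 genes listed for the reference strain, so no gene, pathway or sequence is given, and single spots are named by their place on the array. Each spot lies in 1 of 384 blocks and at 1 of 16 printing positions within the block.

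The authors' deposited table listed a lower synthesis rate at 180 min than at 120 min for most spots, while no spot could be shown to change relative to the typical spot of the arrays. The mean synthesis rate in the authors' deposited table, over the 4468 spots with a value at every time, was 0.0802 at 180 min and 0.108 at 120 min, in the table's own unit, a ratio of 0.741. On the arrays, which were brought to a common distribution and therefore show only changes relative to the typical spot, 0 of 5173 spots passed the test (limma, adjusted p under 0.05), a share of 0%. At an unadjusted p under 0.05 there were 130 spots, or 2.51% of those tested.

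The drop in synthesis rate covered nearly all spots. A lower rate at 180 min than at 120 min was listed in the authors' deposited table for 4230 of 4468 spots, or 94.7%, and a higher one for 227. The ratio of 180 to 120 min in that table had a median of 0.749 over spots, with a 10th percentile of 0.592 and a 90th percentile of 0.931. Among the 4818 spots of the authors' deposited table with a value at both times, 95.2% lay within 1.5-fold of the median ratio. Ratios above 1.5 were found at 16 of them and ratios under 0.5 at 123. A bulk measure cannot tell less transcription in every cell from fewer transcribing cells.

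The volume factor enters these values, and it was taken that the authors divided by it. Per the series' design text the factor was 1.44 at 180 min and 1.17 at 120 min, a ratio of 1.23. Multiplied back by it, the mean synthesis rate of the authors' deposited table was 0.115 at 180 min and 0.127 at 120 min, a ratio of 0.912, and the median ratio over spots was 0.921. On that scale 70.0% of the spots in the table were lower at 180 min, which is 3127 of 4468. The table holds combined values with no replicates, so none of these level differences could be tested.

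**Figure D1:**
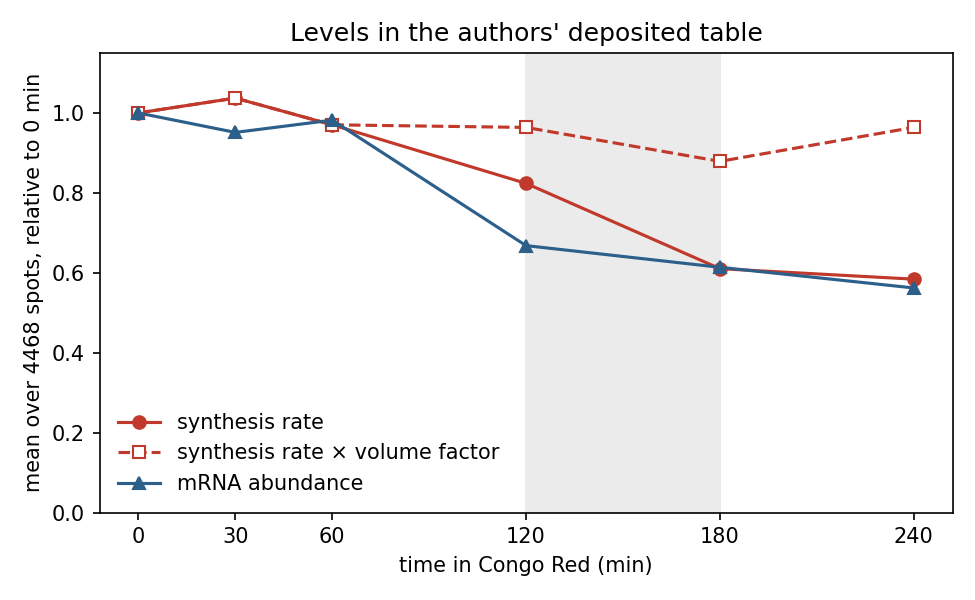
Mean over 4468 spots of the synthesis rate, of the synthesis rate multiplied by the authors' volume factor, and of mRNA abundance in the authors' deposited table, each relative to its value at 0 min, against time in Congo Red in min. The interval from 120 to 180 min is shaded: relative to 0 min the synthesis rate was 0.610 at 180 min against 0.824 at 120 min, or 0.879 at 180 min against 0.964 at 120 min once multiplied by the volume factor.

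The interval from 120 to 180 min held the lowest ratio among the 5 successive steps of the course, which differ in length. The steps up to 60 min lasted 30 min each and the later ones 60 min each. The ratios were not scaled to time. The mean synthesis rate of the authors' deposited table changed by ratios of 1.04 from 0 to 30 min, 0.936 from 30 to 60 min, 0.849 from 60 to 120 min, 0.741 from 120 to 180 min and 0.957 from 180 to 240 min. With the volume factor the ratios of the last 3 steps were 0.993, 0.912 and 1.10. The spread of the ratios over spots was alike in all steps, with an SD of log2 ratios of 0.294, 0.299, 0.275, 0.273 and 0.298 in order of time. These are values of the authors' deposited table with no error, and the steps were not tested against each other.

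How the change of mRNA abundance compared with that of synthesis over the same interval depended on the volume factor. The mean mRNA abundance, again from the authors' deposited table, came to 3.31 at 180 min and 3.60 at 120 min, a ratio of 0.919, with a median ratio over spots of 0.895. Against this stand 0.741 and 0.749 for the synthesis rate as deposited, and 0.912 and 0.921 for the synthesis rate multiplied by the volume factor. The main drop of mRNA abundance came in the interval before, from 60 to 120 min, where the ratio of means was 0.680. In the step from 120 to 180 min 3102 spots of the authors' deposited table were lower in both measures, and 1126 had a lower synthesis rate with a higher mRNA abundance. The mRNA abundance per unit of synthesis rate, which at steady state equals the mean lifetime of an mRNA, had a median ratio of 1.20 between 180 and 120 min, and was higher at 180 min for 77.1% of the spots. With the synthesis rate multiplied by the volume factor the direction turned, to a median ratio of 0.977, with 45.4% of the spots higher at 180 min. In the step from 60 to 120 min the medians had been 0.863 as deposited and 0.737 with the volume factor. Whether cell volume entered the mRNA measure is not stated in the labels, and its part in these ratios was not tested.

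The drop was of nearly the same size for weakly and strongly transcribed spots. The spots of the authors' deposited table were ordered by their synthesis rate at 0 min, which takes no part in the step, and divided into quartiles of 1117. The median ratio of the synthesis rate, 180 over 120 min, was 0.734 in the lowest quartile, 0.749 and 0.753 in the middle ones and 0.756 in the highest. Quartiles of mRNA abundance per unit of synthesis rate at 0 min, where low values at steady state mark mRNAs of fast turnover, had medians of 0.745, 0.744, 0.756 and 0.747. In those same quartiles mRNA abundance had median ratios of 0.945, 0.890, 0.885 and 0.873 in the authors' deposited table. Quartiles of mRNA abundance alone at 0 min gave the same order over a narrower range, at 0.922, 0.901, 0.886 and 0.883. Quartiles of the synthesis rate at 0 min did not, at 0.875, 0.901, 0.896 and 0.902. Which of these measures the order follows was not tested. The values at 0 min enter the quartiles and not the ratios.

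The intensities of the arrays are on no common scale. Total intensity was 773649, 1880504 and 1779595 on the arrays of 180 min, against 826436, 1465250 and 1269071 on those of 120 min, for numbers 1 to 3. The totals overlapped between the times, and number 1 was the lowest of its group at both. Spots listed at 0 made up 14.9% to 16% of an array at 180 min and 15% to 15.3% at 120 min. Across spots the log2 intensities of replicate arrays correlated between 0.929 and 0.950 at 180 min and between 0.945 and 0.958 at 120 min. Of the 6144 spots, 971 did not have at least 2 of 3 values above 0 at both times and were left out. Of these, 812 were at 0 on all 6 arrays and 159 had some value.

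After normalisation the changes of the 5173 spots were small and centred on 0. The median log2 change, 180 minus 120 min, was -0.0046, with a 5th percentile of -0.41 and a 95th percentile of 0.40. The 130 spots under an unadjusted p of 0.05 held 45 with a higher signal at 180 min and 85 with a lower one. The lowest adjusted p of any spot was 1.00 (limma). Among the 5095 spots with a value on all 6 arrays, the 3 arrays of 180 min lay above the 3 arrays of 120 min at 164, or 3.22%, and below them at 272, or 5.34%. The same count of 0 calls was found in 16 alternative fits, in which the number with an unadjusted p under 0.05 ran from 95 to 247.

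A p above the threshold does not show that a spot was unchanged, so the intervals are given. The 95% interval of a spot's log2 change had a median half-width of 0.54, with quartiles of 0.41 and 0.78. It lay wholly within a 2-fold change either way for 3924 spots, or 75.9%, and wholly within a 1.5-fold change for 1638, or 31.7%. Since the arrays were scaled to each other, these intervals bound changes relative to the typical spot and not a change shared by all spots. In the same kind of fit, 57 spots rose and 6 fell at 180 min against 0 min, which is 1.11% and 0.117% of 5149, and 39 rose and 8 fell at 120 min against 0 min, which is 0.758% and 0.155% of 5147 (limma, adjusted p under 0.05). These comparisons share the arrays of 0 min with each other and their later arrays with the step.

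**Figure D2:**
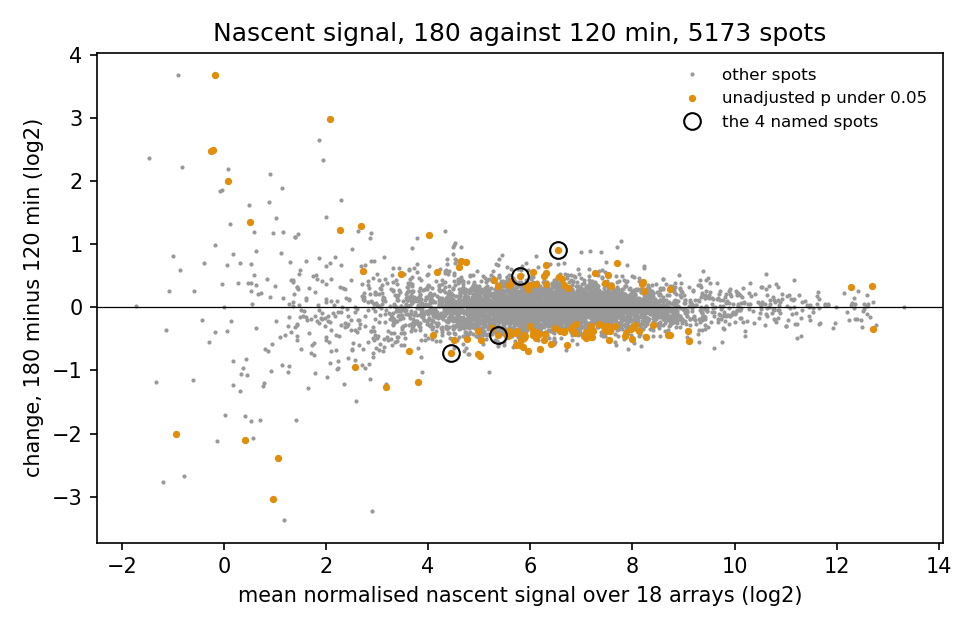
Change in nascent signal of 5173 spots, 180 minus 120 min (log2), against the mean normalised signal over the 18 nascent arrays (log2). Orange points are the 130 spots under an unadjusted p of 0.05, and circles mark the 4 named spots; points fan out at low signal and lie close to 0 elsewhere.

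The largest apparent changes sat among the dimmest spots. A change of more than 1 on the log2 scale was seen at 38 spots upwards and at 36 downwards, and 73 of these 74 lay in the lowest quartile of mean signal. In that quartile the 5th and 95th percentiles of the change were -0.69 and 0.69 and the median standard error was 0.36. In the other quartiles, in order of signal, the standard error was 0.24, 0.21 and 0.24, and 0, 0 and 1 spots went beyond a change of 1. No background value accompanies the intensities, so changes of dim spots are rough.

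The 3 arrays of a time, taken by number, did not repeat each other's step. The change of each spot was computed within number 1, within number 2 and within number 3, which share no array. Across 5124 spots the steps of numbers 1 and 2 correlated at Pearson's r of 0.10 and Spearman's rho of 0.14. For numbers 1 and 3 these were 0.03 and 0.08 over 5105 spots, and for numbers 2 and 3 they were -0.32 and -0.33 over 5111 spots. After centring of each printing position, r came to 0.11, 0.10 and -0.29 in the same order. Spots are not independent of each other, and no p is given for these values. The steps of numbers 2 and 3 leaned in opposite directions, and the numbering of the array files, which defines these pairs, is not tied to cultures by the labels.

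Printing position 3 stood apart on these arrays. Its 334 tested spots had a median log2 change of 0.21, while the medians of the other 15 positions lay between -0.06 and 0.03. By number, the median change at that position was -0.24 for number 1, -0.16 for number 2 and 1.11 for number 3. Relative to the same spots on all 18 nascent arrays, position 3 stood at -0.25, -0.55 and 0.37 at 180 min, against 0.00, -0.39 and -0.67 at 120 min, for numbers 1 to 3. Position 3 also had the highest median in the authors' deposited table. The median ratio there was 0.830, and at the other positions between 0.718 and 0.764. Of that table's 4818 spots with both values, 328 lay at position 3 and 284 at position 2. Position 3 held 5 of the 16 ratios above 1.5, and position 2 held 4. Without position 3 the ratio of means in the authors' deposited table was 0.736, and the test still called 0 spots, with 125 under an unadjusted p of 0.05 (limma).

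**Figure D3:**
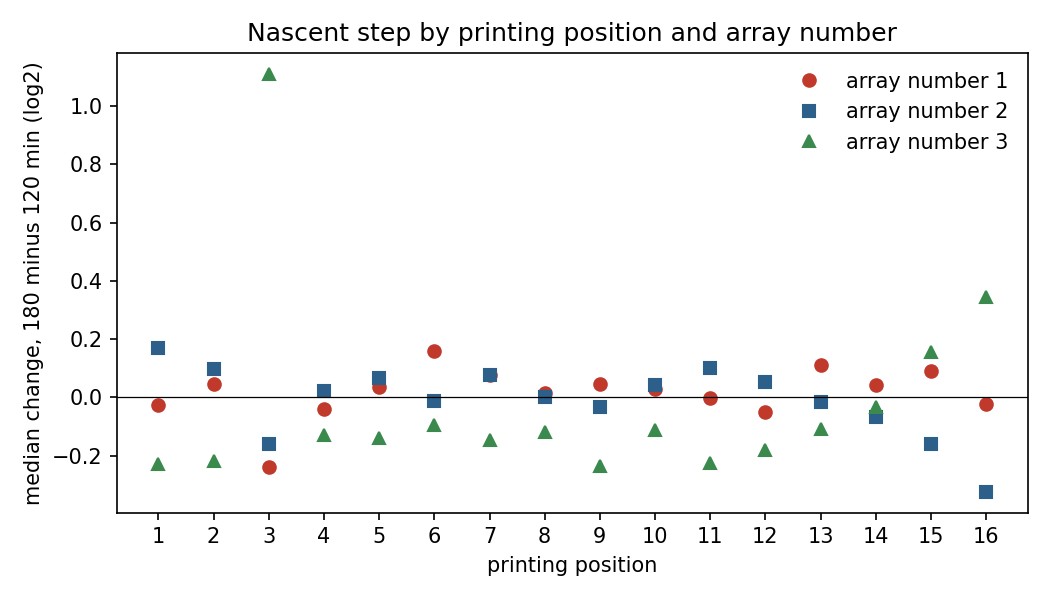
Median change in nascent signal, 180 minus 120 min (log2), of the spots at each of the 16 printing positions, for array numbers 1, 2 and 3. Position 3 stands at 1.11 for number 3 and below 0 for the others, and number 3 is also high at position 16, at 0.34.

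Single spots were chosen as the smallest p-values in each direction among those whose arrays did not overlap between the times. None of the 4 passed the test, with an adjusted p of 1.00 each (limma). Spot R6 - C8 : 5 had the smallest p-value of all. Its normalised log2 nascent signal was 7.21, 6.88 and 7.51 at 180 min, against 6.22, 6.42 and 6.27 at 120 min. As the choice required, the lowest array of 180 min lay above the highest of 120 min. The means were 7.20 ± 0.31 at 180 min and 6.30 ± 0.10 at 120 min (SD, n = 3 each), a log2 change of 0.90 ± 0.20 (SE) with a 95% interval from 0.48 to 1.32 (limma, unadjusted p = 0.000407). Its means at 0, 30 and 60 min were 5.93, 5.90 and 6.16, and that at 240 min was 7.77, so each mean after 30 min lay above the one before it. The authors' deposited table gave this spot a synthesis rate of 0.0854 at 180 min and 0.0525 at 120 min, a ratio of 1.63 where the median spot had 0.749. That table is no separate support, since its log2 ratios correlated with the array step at r = 0.784 over 4818 spots. Its mRNA signal had a log2 change of 0.66 ± 0.25 (SE) over the same interval (limma, adjusted p = 1), and the difference between the changes of both assays was 0.24 (limma, adjusted p = 1.00).

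Spot R14 - C21 : 8 was the other one with a higher signal at 180 min. Its log2 nascent signal was 6.19, 6.05 and 6.00 at 180 min, against 5.76, 5.44 and 5.58 at 120 min. The change was 0.49 ± 0.13 (SE), with an interval from 0.21 to 0.77 (limma, unadjusted p = 0.00212). Its 120 min mean of 5.59 was the lowest of the 6 times and its 180 min mean of 6.08 the highest. At 0 and 240 min it averaged 5.77 and 5.83. Its ratio in the authors' deposited table was 1.05.

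The remaining pair had a lower signal at 180 min. Spot R1 - C2 : 6 stood at 5.16, 5.08 and 5.14 at 180 min, against 5.51, 5.71 and 5.48 at 120 min, a log2 change of -0.44 ± 0.12 (SE) with an interval from -0.69 to -0.20 (limma, unadjusted p = 0.00167). Its signal was back at 5.56 at 240 min, close to the 120 min mean of 5.57. Spot R1 - C11 : 10 stood at 4.16, 4.11 and 4.19 at 180 min, against 4.90, 4.99 and 4.72 at 120 min, a log2 change of -0.72 ± 0.19 (SE) with an interval from -1.12 to -0.31 (limma, unadjusted p = 0.00181). At 240 min its arrays spread from 3.92 to 4.72 around a mean of 4.28. The ratios of these spots in the authors' deposited table were 0.542 and 0.532. Their mean signals lay at percentiles 26.5 and 13.3 of all tested spots. In 16 alternative fits the change of R6 - C8 : 5 lay between 0.75 and 1.06 and that of R14 - C21 : 8 between 0.41 and 0.58, and the lowest adjusted p of any of the 4 was 0.775.

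**Figure D4:**
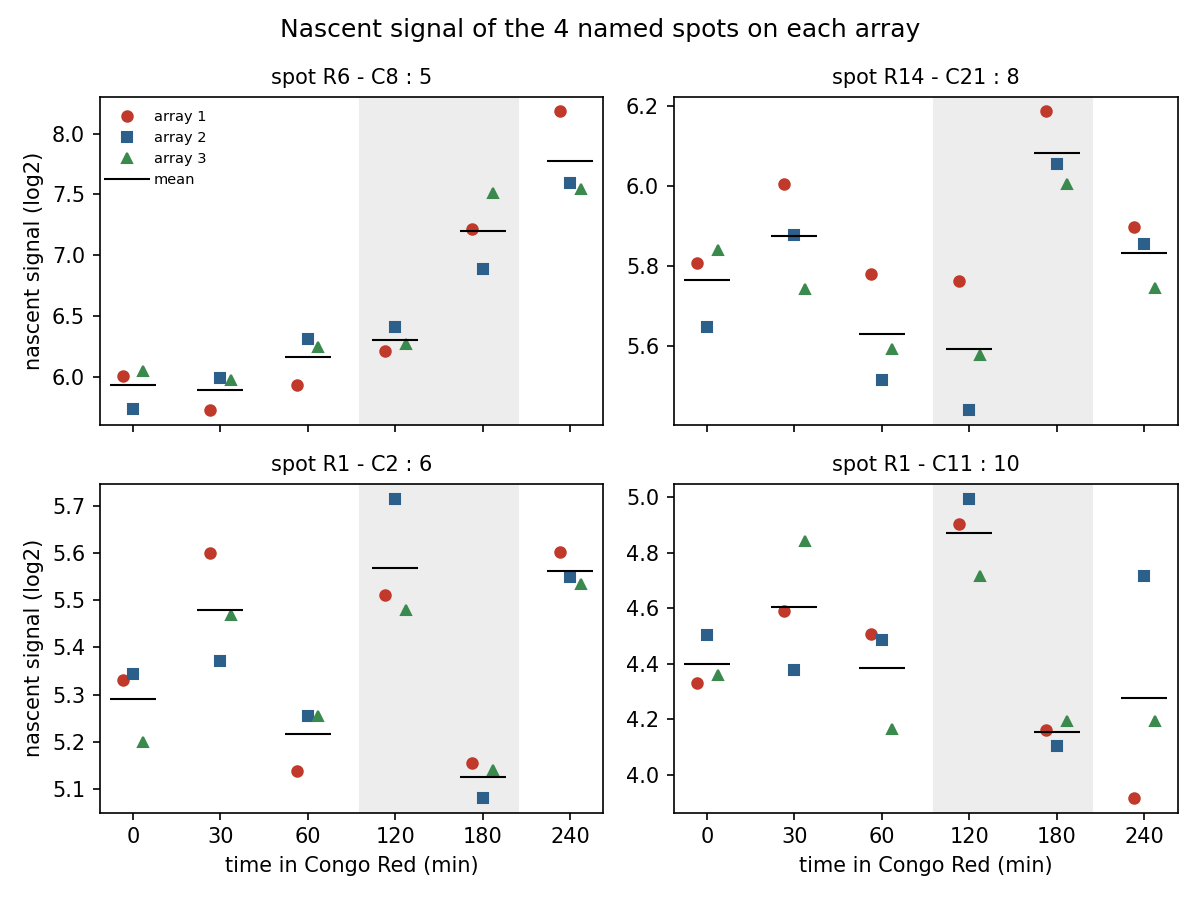
Normalised nascent signal (log2) of the 4 named spots on each of 3 arrays at 0, 30, 60, 120, 180 and 240 min, with the mean as a bar and the compared times shaded. In each panel the arrays of 180 min lie on 1 side of those of 120 min, which the choice of these spots required. Spot R6 - C8 : 5 averaged 7.20 at 180 min, against 6.30 at 120 min, with a further mean of 7.77 at 240 min.

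The step was then read for spots that had changed on arrays that take no part in it. On the mRNA arrays 69 spots rose and 19 fell at 180 min against 0 min, 1.39% and 0.382% of 4976, and 64 rose and 14 fell at 240 min, 1.29% and 0.282% of 4973 (limma, adjusted p under 0.05). At 120 min 33 rose and 0 fell, 0.664% and 0% of 4967. With the array number as a block the mRNA calls were several times as many: 199 rose and 102 fell at 120 min, 4.01% and 2.05%, 373 rose and 277 fell at 180 min, 7.5% and 5.57%, and 345 rose and 264 fell at 240 min, 6.94% and 5.31% (limma, adjusted p under 0.05). Since the test of the nascent step called 0 of all 5173 spots, a count of calls within these lists carries no information. The lists were chosen with earlier results of these data known, overlap each other, and are described without a test.

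Spots with raised mRNA showed a nascent signal that was already up at 120 min. Their median step from there to 180 min was near 0, but its sign differed between array numbers. For the 33 spots with raised mRNA at 120 min the median nascent log2 change from 0 min was 0.37, 0.71, 1.09, 1.23 and 1.02 at 30, 60, 120, 180 and 240 min. Their median nascent step from 120 to 180 min was -0.03, with 13 above 0 and 20 below, and it ran from -0.08 to 0.11 with 1 of the 6 nascent arrays left out in turn. For the 68 measured spots with raised mRNA at 180 min the median step was -0.02, with 32 above 0, and for the 64 at 240 min it was -0.03, with 29 above 0. Over all 5173 spots 2536 were above 0, or 49.0%, and the median was -0.0046. In the longer lists called with the array number as a block, 82 of 197 measured spots raised at 120 min were above 0, or 41.6%, 175 of 371 raised at 180 min, or 47.2%, and 139 of 345 raised at 240 min, or 40.3%, with medians of -0.04, -0.02 and -0.04. For numbers 1, 2 and 3 the median step was 0.09, 0.27 and -0.32 for the 68 and 0.10, 0.30 and -0.35 for the 64. For the 33 it was 0.07, 0.07 and -0.13, and for the 197 it was 0.05, 0.11 and -0.26. The medians near 0 thus join steps of opposite sign. In the authors' deposited table the median synthesis rate ratio of the 68 was 0.745, and 64 of them were lower at 180 min. The mRNA abundance of the same spots in that table had a median ratio of 1.04, against 0.895 over all spots, but the mRNA arrays of 180 min had chosen them.

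Spots with lowered mRNA leaned above 0 in the median, though not on every array number. Of the 17 measured spots with lowered mRNA at 180 min, 11 had a nascent step above 0 and the median was 0.09. Of the 13 with lowered mRNA at 240 min, 11 were above 0 and the median was 0.15. The median nascent change of this list from 0 min was -0.34, -0.72, -0.49 and -0.44 at 60, 120, 180 and 240 min. With each printing position centred, 10 of 17 and 10 of 13 were above 0 and the medians were 0.13 and 0.21. None of these spots lay at printing position 3. With 1 of the 6 nascent arrays left out in turn, the medians ran from 0.04 to 0.11 and from 0.08 to 0.24. Longer lists, called on the mRNA arrays with the array number as a block, were also above 0 more often than all spots: 75 of 100 spots lowered at 120 min were above 0, with a median of 0.14, 168 of 271 lowered at 180 min, with a median of 0.06, and 167 of 255 lowered at 240 min, with a median of 0.06. Of the 100, 8 lay at position 3, and of the other 92, 67 were above 0. The size of the lean differed between arrays, and for the 271 and the 17 the median of number 2 was slightly below 0. For numbers 1, 2 and 3 the median step was 0.03, 0.13 and 0.31 for the 100. For the 271 it was 0.002, -0.03 and 0.18, and for the 255 it was 0.03, 0.05 and 0.11. For the 17 it was 0.04, -0.01 and 0.15, and for the 13 it was 0.09, 0.25 and 0.03. The signal of these lists was lower than that of the typical spot, at a median log2 of 5.85 for the 100 against 6.38 over all spots, and its part in the result was not tested.

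Spots called up in nascent signal at 240 min were already up at 120 min. On the nascent arrays 38 spots rose at 240 min against 0 min, 0.739% of 5145 (limma, adjusted p under 0.05), while 4 fell, 0.0777%. A fit with the array number as a block called 109 up and 35 down at 240 min (limma, adjusted p under 0.05). Neither 240 min nor 0 min enters the step. The median change of the 38 from 0 min was 0.40, 0.78, 1.22, 1.34 and 1.41 at 30, 60, 120, 180 and 240 min, values that share the arrays of 0 min. The arrays of 240 and 0 min chose the list, so these values are no fair comparison of 240 min with earlier times. Their median step from 120 to 180 min was 0.03, with 23 of 38 above 0 and quartiles of -0.07 and 0.27. The highest value among them, 0.90, was that of spot R6 - C8 : 5. In the authors' deposited table the median synthesis rate ratio of 37 of these spots was 0.779, and 0.959 with the volume factor.

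**Figure D5:**
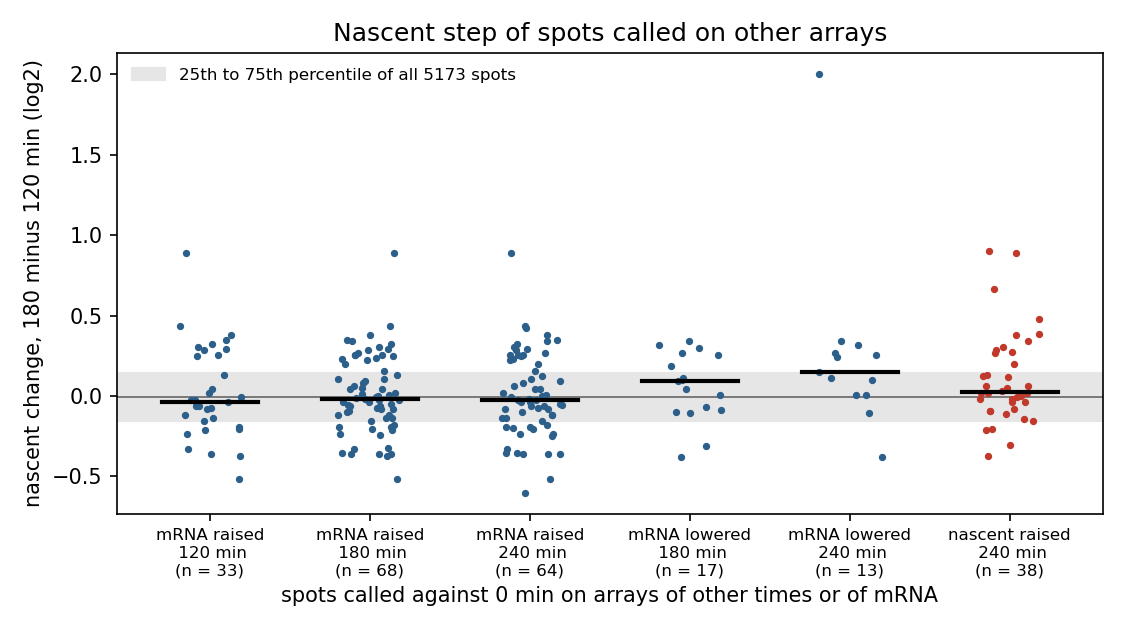
Nascent change, 180 minus 120 min (log2), of each spot called against 0 min on the mRNA arrays or on the nascent arrays of 240 min, with the median as a black bar; the grey band spans the 25th to 75th percentile of all 5173 spots, from -0.16 to 0.14. The medians of the raised lists lie between -0.03 and 0.03, and those of the lists with lowered mRNA at 0.09 and 0.15.

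The same interval was tested on the mRNA arrays, which measure the pool of finished transcripts. Of 4985 spots 0 passed, 0% (limma, adjusted p under 0.05), and 50 lay under an unadjusted p of 0.05, or 1.00%. With the array number as a block 1 spot fell and 0 rose, and 214 had an unadjusted p under 0.05. In the fits without a block the median standard error was 0.36 on the mRNA arrays and 0.25 on the nascent arrays. The mRNA value includes spread that arrays of the same number share, so it does not rank the precision of the assays. The nascent step and the mRNA step share no array. Across 4898 spots measured in both assays they correlated at Pearson's r of 0.16 and Spearman's rho of 0.21. Within numbers 1, 2 and 3 r was 0.23, 0.21 and 0.27, and rho was 0.26, 0.25 and 0.13. A spot has the same place on the array in both assays, and no p is given. Across spots of the authors' deposited table the log2 ratios of synthesis rate and of mRNA abundance correlated at 0.11.

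A direct test of the difference between the nascent step and the mRNA step called 0 of 4898 spots, 0% (limma, adjusted p under 0.05). At an unadjusted p under 0.05 there were 17, or 0.347%, and the lowest adjusted p was 0.332 (limma). With the array number as a block 1 spot was called and 114 had an unadjusted p under 0.05. The 5th and 95th percentiles of the difference were -0.56 and 0.56 on the log2 scale.

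Few spots passed in any single step of the course on the nascent arrays. Between 5147 and 5173 spots were tested, of which 1 rose from 0 to 30 min and 0 passed in each of the 4 later steps (limma, adjusted p under 0.05). At an unadjusted p under 0.05 there were 108, 130, 139, 130 and 72 spots in order of time. The interquartile range of the log2 changes was 0.30 in the step from 120 to 180 min and between 0.29 and 0.33 in the others.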

How the data were processed

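The authors deposited a file per array with an intensity for each spot and neither background, flag nor gene name. The authors' table holds a signal per spot and time, the replicates combined, and per the series' design text its synthesis rate is normalised to cell volume; all 12 columns were used. How arrays were scanned and the table scaled is not given in the sources used here. Zeros were treated as missing values and other intensities taken to log2. Spots with at least 2 of 3 values above 0 at both times were kept, the 18 arrays of an assay were quantile normalised, and time was fitted as a factor with limma 3.58.1 in R 4.3.3, with Benjamini-Hochberg adjustment over all spots tested. Arrays of both assays entered the test of the difference, with array weights per assay. The functions were tested on simulated data. Array numbers were read from the file numbering. On the mRNA arrays all 45 same-number pairs correlated between 0.612 and 0.834 in their deviations from group means, so a fit with the number as a block is given there. Named spots were the 2 smallest p-values in each direction among spots whose arrays did not overlap. Members, lists and tests were chosen with earlier results of these data known. The lists by gene were not run, since no spot has a gene name, and the precision is limited by 3 arrays per group.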

Additional observations from a re-analysis of the deposited data

How the results depend on the processing

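The nascent step called 0 spots in 16 alternatives and, added after seeing the data, without printing position 3 (limma). The same-number check gave correlations of 0.511, -0.222 and -0.0925 for numbers 1, 2 and 3 between 120 and 180 min on the nascent arrays, and 15 of 45 pairs over the course were at or below 0.1, so the numbers were not taken to pair them. With the replicate block 0 nascent spots were called and 247 lay under an unadjusted p of 0.05, against 130 without it. The mRNA step called 1 spot with the replicate block, and 0 to 1 with 1 array left out, with 1 called without 180 min replicate 1 or 3. Its 50 spots under an unadjusted p of 0.05 became 214 with the block, 88 with 1 value of 3 required, 26 without the dimmest 25% of the spots and 29 in the fit to the 6 arrays compared, and 84, 76 and 78 without 180 min replicates 2 and 3 and 120 min replicate 2. The difference between the steps called 1 spot with the replicate block and 0 to 2 without 1 replicate number, namely 2 without number 1 and 1 without number 2. Its 17 spots under an unadjusted p of 0.05 became 114 with the block and 51 without number 2. The ratio of mean synthesis rates in the authors' deposited table, 0.741, was 0.749 as a median over spots, 0.741 over all spots with both values, 0.912 with the volume factor and 0.736 without printing position 3. The cause of these changes was not tested. With 1 nascent array left out, the median step of the lists of raised mRNA at 120, 180 and 240 min took either sign, from -0.077 to 0.107, from -0.09 to 0.11 and from -0.10 to 0.09, and that of the lists of lowered mRNA at 180 and 240 min ran from 0.04 to 0.11 and from 0.08 to 0.24.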
